A study of Homo sapiens with 6 samples.

Results

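MHC class I antigen presentation was examined in LX-2 cells through 9 genes: HLA-B, HLA-C and HLA-E, which encode class I heavy chains, B2M, which encodes their light chain, TAP1, TAP2 and TAPBP, which serve peptide transport and loading, and PSMB8 and PSMB9, which encode immunoproteasome subunits. Members were taken by gene symbol from the 60605 rows with an Ensembl identifier, out of 60780 rows in all, and each symbol had 1 row. LX-2 is an established human hepatic stellate cell line. The cells were cultured for 24 h in medium conditioned by HCT116, a human colorectal carcinoma line that carried an empty vector (Vector-CM, n = 3) or overexpressed FGFBP1, a secreted carrier protein of fibroblast growth factors (FGFBP1-CM, n = 3). Both HCT116 lines came from lentiviral infection with a vector that also carries EGFP and puromycin resistance, stable clones were selected with puromycin, and the LX-2 cells of both groups were unmodified. The libraries compared the effect of the tumor cell secretome on stellate cell RNA, and nothing in the sources says whether replicates came from separate cultures, so p-values measure the spread between these libraries.

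In this pathway, proteasomes cut cytosolic proteins into peptides, and the catalytic subunits encoded by PSMB8, PSMB9 and PSMB10 replace the constitutive PSMB5, PSMB6 and PSMB7 in the immunoproteasome. TAP1 and TAP2 form the transporter that carries peptides into the endoplasmic reticulum, where tapasin (TAPBP) bridges the transporter and empty heavy chains paired with beta-2-microglobulin. Loaded complexes at the cell surface are read by CD8+ T cells, whereas HLA-E is best known as a ligand for receptors of natural killer cells. Most of these genes are induced by interferons, through factors such as IRF1 and through the class I transactivator NLRC5.

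Total counts were 14003780 to 18508113 per library. FGFBP1-CM replicate 1 stood apart on the first principal component, at 34.2 against 3.80 and 5.02 in the other FGFBP1-CM libraries and between -16.1 and -11.6 in Vector-CM. Of the 12 stellate or mesenchymal markers, VIM and COL1A1 were abundant, whereas LRAT had 0 counts and DES had at most 4 counts in a library. Their summed level was 3551 to 3818 CPM (counts scaled to a common library size by TMM) in Vector-CM and 2757 to 3291 CPM in FGFBP1-CM, thus lower in FGFBP1-CM in the same direction as most members. Of the other lists, the 10 leukocyte markers summed to 5.06 to 6.14 CPM and 4.89 to 7.72 CPM, with CD163 and TYROBP at 0. The 10 colorectal epithelial markers summed to 2.07 to 2.36 CPM and 1.76 to 2.16 CPM, and the 6 endothelial markers to 14.6 to 16.7 CPM and 13.6 to 16.6 CPM. The 10 hepatocyte markers summed to 41.0 to 44.1 CPM and 18.2 to 28.0 CPM, again lower in FGFBP1-CM. Of the 20 genes past the threshold in the whole comparison, 4 were among the 6 tested hepatocyte markers and 1 among the 9 tested stellate markers. The part of these markers in the results below was not tested.

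Of the 9 genes, 8 lie on chromosome 6 and B2M lies on chromosome 15. PSMB9 and TAP1 are read in opposite directions from neighboring RefSeq starts, and their RefSeq promoter windows overlap at the ends. Promoter windows of 300 bases (250 before to 50 after the start, RefSeq, GRCh38.p14) were found for 8 of the 9 genes, and 5 are shown because the class I chains and the transporter genes carry the comparison. Capitals mark matches on either strand, allowing overlap. The patterns were GAAANNGAA (a core of the interferon-stimulated response element), TTCNNNGAA (the interferon-gamma activated site), CCAAT and TGACGTCA (the cAMP response element). A narrow form of the kappaB motif, given by name only, was also marked.
HLA-B, chr6:31357130-31357429, minus strand: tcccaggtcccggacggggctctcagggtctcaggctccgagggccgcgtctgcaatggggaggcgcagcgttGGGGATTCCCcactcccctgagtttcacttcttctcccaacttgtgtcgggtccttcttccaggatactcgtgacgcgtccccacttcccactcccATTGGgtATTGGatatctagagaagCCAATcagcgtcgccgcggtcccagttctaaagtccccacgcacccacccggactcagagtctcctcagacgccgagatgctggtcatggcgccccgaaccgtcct
HLA-C, chr6:31272043-31272342, minus strand: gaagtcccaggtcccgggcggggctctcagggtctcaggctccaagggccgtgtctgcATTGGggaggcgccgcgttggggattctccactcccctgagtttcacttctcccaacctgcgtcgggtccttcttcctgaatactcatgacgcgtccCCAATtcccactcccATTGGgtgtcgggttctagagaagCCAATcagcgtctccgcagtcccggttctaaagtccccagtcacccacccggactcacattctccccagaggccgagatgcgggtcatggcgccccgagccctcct
B2M, chr15:44711267-44711566, plus strand: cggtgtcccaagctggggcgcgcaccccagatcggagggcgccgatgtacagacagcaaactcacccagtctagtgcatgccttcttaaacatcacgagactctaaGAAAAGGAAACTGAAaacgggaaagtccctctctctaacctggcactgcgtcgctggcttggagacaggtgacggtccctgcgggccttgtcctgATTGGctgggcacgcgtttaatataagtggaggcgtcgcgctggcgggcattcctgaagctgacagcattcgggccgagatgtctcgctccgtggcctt
TAP1, chr6:32853655-32853954, minus strand: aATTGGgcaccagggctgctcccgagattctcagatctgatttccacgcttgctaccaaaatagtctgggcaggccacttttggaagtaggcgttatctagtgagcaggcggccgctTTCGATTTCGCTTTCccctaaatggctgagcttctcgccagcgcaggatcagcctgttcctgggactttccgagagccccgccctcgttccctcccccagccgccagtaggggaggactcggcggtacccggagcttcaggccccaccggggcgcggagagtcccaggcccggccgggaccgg
TAP2, chr6:32838690-32838989, minus strand: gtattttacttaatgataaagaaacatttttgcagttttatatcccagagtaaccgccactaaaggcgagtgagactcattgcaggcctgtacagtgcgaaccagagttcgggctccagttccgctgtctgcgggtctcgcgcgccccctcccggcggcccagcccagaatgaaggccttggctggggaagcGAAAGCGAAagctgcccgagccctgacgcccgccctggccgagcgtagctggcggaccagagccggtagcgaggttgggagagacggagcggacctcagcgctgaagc
GAAANNGAA was present in a window of B2M, TAP1, TAP2, TAPBP and PSMB8, that is 5 of 8 genes, where 8.11% of 35116 promoter windows of the same length hold it. The 8 genes had 10 windows and a gene counted if any of them matched, whereas the shares of all windows are per window. CCAAT occurred in 5 of 8 genes (HLA-B, HLA-C, B2M, TAP1 and PSMB9) against 34.6% of all windows. The narrow form of the kappaB motif occurred in HLA-B alone of the 8 (2.17% of all windows). Other forms of the kappaB motif were not searched for, so windows such as those of TAP1 and B2M may hold them in lower case. TTCNNNGAA occurred in 2 of 8 (7.66% of all windows), TAP1 and PSMB8, each in a window of a second start. TGACGTCA occurred in 0 of 8 (1.85%). In TAP1 and in B2M the matches to GAAANNGAA overlap each other. Such matches describe the letters of these windows and were not linked to any factor here. A window without a match, as in HLA-B and HLA-C for GAAANNGAA, may still hold another form of the element.

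All 4 class I chain genes had lower levels in FGFBP1-CM, and none passed the test across all genes. HLA-B encodes a classical, highly polymorphic heavy chain (chromosome 6, 31269491 to 31357188, minus strand, GRCh38). Its level was 449, 483 and 448 CPM in Vector-CM replicates 1 to 3 and 256, 413 and 310 CPM in FGFBP1-CM replicates 1 to 3. The groups did not overlap, and the FGFBP1-CM libraries were spread widely, with replicate 2 close to Vector-CM. The mean was 459.8 ± 20.03 CPM (SD, n = 3) in Vector-CM against 326 ± 79.5 CPM (SD, n = 3) in FGFBP1-CM. On the log2 scale the ratio of FGFBP1-CM to Vector-CM (the log2 fold change, hereafter log2 ratio) was -0.49 (SE 0.126), a level of 0.710 times that in Vector-CM, and its adjusted p was 0.0744 (edgeR). In bulk RNA, fewer cells of a type and less RNA per cell cannot be told apart.

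HLA-C, the neighboring classical heavy chain gene (chromosome 6, 31268749 to 31272130, minus strand), showed the same order of libraries within FGFBP1-CM. It had 336, 368 and 341 CPM in Vector-CM against 238, 322 and 259 CPM in FGFBP1-CM, and the groups did not overlap. The log2 ratio was -0.35 (SE 0.0948, adjusted p = 0.0822, edgeR). The annotated spans of HLA-B and HLA-C overlap, and their exons share 35 bp on the same strand. HLA-E, a nonclassical heavy chain gene of limited polymorphism (chromosome 6, 30489467 to 30494205, plus strand), had 491, 523 and 516 CPM against 365, 421 and 445 CPM, again without overlap. Its log2 ratio of -0.31 (SE 0.0761) had an adjusted p of 0.0680 (edgeR). The highest FGFBP1-CM library was replicate 3 for HLA-E and replicate 2 for HLA-B and HLA-C. No more than 0.491% of the 100-base windows of HLA-B, HLA-C or HLA-E transcripts also occurred in a transcript of another gene in GENCODE release 29, but alleles of LX-2 cells may differ from that reference and the effect on alignment was not tested.

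B2M encodes beta-2-microglobulin, the light chain shared by all class I complexes (chromosome 15, 44711487 to 44718877, plus strand). The levels of B2M were 1898, 2170 and 2174 CPM in Vector-CM against 1466, 1904 and 1730 CPM in FGFBP1-CM. The groups overlapped, since FGFBP1-CM replicate 2 lay just above Vector-CM replicate 1. The mean was 2080.4 ± 158 CPM (SD, n = 3) in Vector-CM against 1700.1 ± 220.4 CPM (SD, n = 3) in FGFBP1-CM, which gave a log2 ratio of -0.29 (SE 0.0932; adjusted p = 0.111, edgeR). Without FGFBP1-CM replicate 1 the log2 ratio of B2M was -0.19 (adjusted p = 0.262, edgeR; range over 16 alternatives 0.00147 to 0.322). That library was the lowest for all 4 chains.

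**Figure D1:**
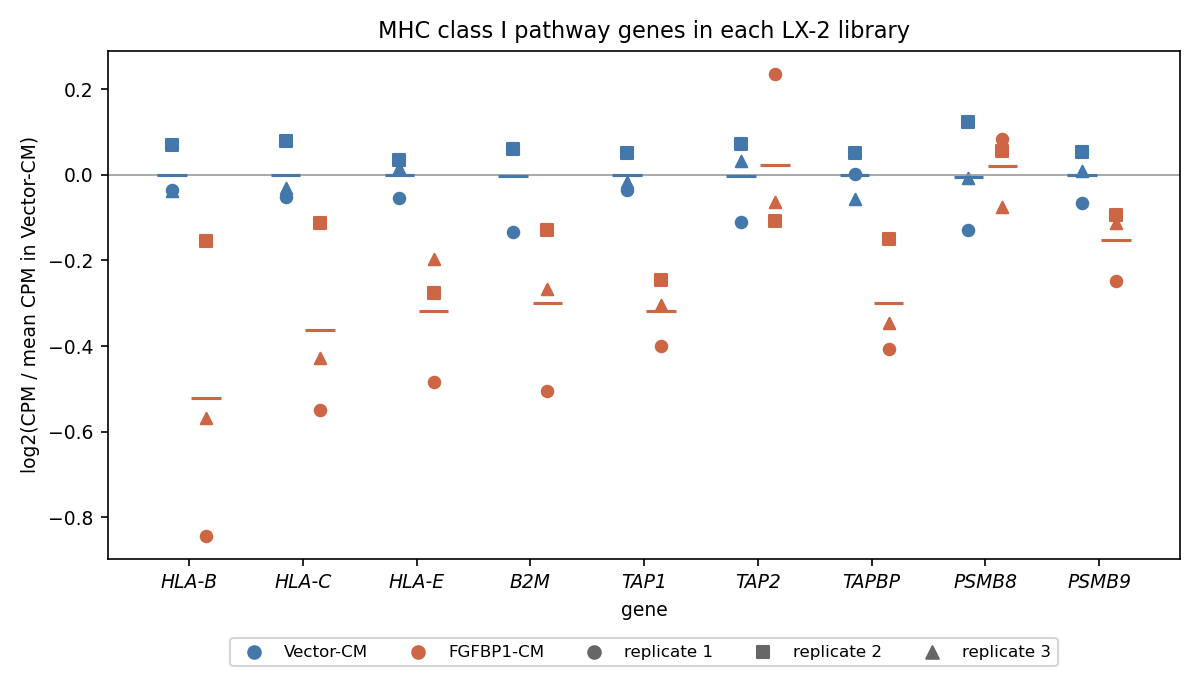
Level of each of the 9 genes in each library, as log2 of its CPM over the mean CPM of the 3 Vector-CM libraries. Points are libraries, marker shapes are replicate numbers and horizontal lines are group means of the plotted values; the FGFBP1-CM points lie below the Vector-CM points for 6 genes and overlap for B2M, TAP2 and PSMB8.

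The genes of peptide transport and loading differed among themselves. TAP1, which encodes one half-transporter (chromosome 6, 32845209 to 32853978, minus strand), had 86.2, 91.5 and 87.3 CPM in Vector-CM against 66.9, 74.4 and 71.6 CPM in FGFBP1-CM. The groups were well separated, with a spread of 2.81 CPM (SD, n = 3) in Vector-CM against 3.81 CPM (SD, n = 3) in FGFBP1-CM. For TAP1 the log2 ratio was -0.32 (SE 0.0669), and its adjusted p of 0.0568 (edgeR) was the lowest of the 9 members. TAPBP, which encodes tapasin (chromosome 6, 33299694 to 33314387, minus strand), had 271, 281 and 261 CPM against 204.5, 244 and 213 CPM, without overlap (log2 ratio -0.30, SE 0.0736, adjusted p = 0.0715, edgeR).

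TAP2, the partner of TAP1 in the transporter (chromosome 6, 32821833 to 32838780, minus strand), did not share this pattern. It had 34.0, 38.6 and 37.5 CPM in Vector-CM against 43.3, 34.1 and 35.2 CPM in FGFBP1-CM. FGFBP1-CM replicate 1 was the highest of the 6 libraries and the other two FGFBP1-CM libraries lay within the Vector-CM range. The log2 ratio of TAP2 was 0.04 (SE 0.0966; adjusted p = 0.868, edgeR), and it was -0.08 without FGFBP1-CM replicate 1 (adjusted p = 0.707; range over 16 alternatives 0.593 to 0.952). Of the 100-base windows of TAP2 transcripts, 30.3% also occurred in transcripts of an overlapping annotated gene on the same strand, which had 0 counts in the 6 libraries. The sources do not say how reads matching both genes were counted. TAP2 may be undercounted in the shared stretch, which was not tested.

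The difference between the transporter genes was tested as a ratio of FPKM, which is per gene length. This ratio was added after the data were seen. Its size would be affected by any undercount of TAP2 and by the gene lengths behind FPKM. TAP1 was 3.48, 3.26 and 3.19 times TAP2 in Vector-CM and 2.12, 3.00 and 2.80 times in FGFBP1-CM, without overlap. The mean ratio was 3.31 ± 0.152 (SD, n = 3) in Vector-CM and 2.64 ± 0.458 (SD, n = 3) in FGFBP1-CM, with p = 0.1 in an exact two-sided permutation test of log2 ratios, the smallest p that 3 against 3 libraries allow. Without FGFBP1-CM replicate 1 the difference of the mean ratios went from -0.671 to -0.413.

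Neither immunoproteasome member differed clearly. PSMB8 (chromosome 6, 32840717 to 32844703, minus strand) encodes the subunit that replaces PSMB5. Its levels of 21.996, 26.2 and 23.9 CPM in Vector-CM against 25.5, 24.98 and 22.8 CPM in FGFBP1-CM overlapped throughout, with a log2 ratio of 0.03 (SE 0.0926; adjusted p = 0.894, edgeR). PSMB9 (chromosome 6, 32844136 to 32859585, plus strand), which replaces PSMB6, had 39.9, 43.3 and 42.0 CPM against 35.1, 39.1 and 38.6 CPM. The groups did not overlap but came close, and the log2 ratio of PSMB9 was -0.15 (SE 0.0752; adjusted p = 0.264, edgeR) and -0.10 without FGFBP1-CM replicate 1. The exons of PSMB8 and PSMB9 share 139 bp on opposite strands, and without stated strandedness reads there cannot be told apart. The antisense gene PSMB8-AS1, with 159 counts in all over the 6 libraries, shares 456 bp with exons of TAP1, 618 bp with PSMB8 and 174 bp with PSMB9.

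Across the 9 members, all of which passed the filter on low counts, 0 had an adjusted p under 0.05 in the edgeR test, where 0.120% of the 16707 tested genes did (0.0658% lower). At an adjusted p under 0.1, 5 of the 9 were called, all lower, against 5.58% of tested genes (2.60% lower). This cut was not fixed beforehand, and the adjusted p of these 5 ran from 0.0568 for TAP1 to 0.0822 for HLA-C (edgeR). At an unadjusted p under 0.05, 6 of the 9 were called and all 6 were lower (the 3 heavy chains, B2M, TAP1 and TAPBP), against 21.7% of tested genes in either direction and 10.7% lower. The Wald test of DESeq2 called 5 of the 9, all lower (HLA-C, HLA-E, B2M, TAP1 and TAPBP), against 3.50% of tested genes (1.57% lower). Without a filter beyond 1 count, edgeR called 6, the same as at an unadjusted p under 0.05, against 3.64% of genes (1.44% lower). CPM did not overlap between groups for 6 members, all lower in FGFBP1-CM, against 26.0% of tested genes without overlap in either direction and 13.2% lower. The median log2 ratio of the members was -0.30, beside 0.00 for all tested genes. These shares describe the 9 genes, which were chosen with earlier results of these data known.

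The call on the members depended on the libraries and on the fit. With FGFBP1-CM replicate 2 left out, 6 of the 9 passed at an adjusted p under 0.05 (5.15% of tested genes did, 2.77% lower), and with FGFBP1-CM replicate 3 left out 2 passed, HLA-E and TAP1 (2.34% of tested genes, 0.775% lower). With FGFBP1-CM replicate 1 or any 1 Vector-CM library left out, 0 passed. With GC and length correction plus the replicate number as a block 5 passed (HLA-B, HLA-C, HLA-E, B2M and TAP1), against 1.51% of tested genes (1.05% lower). GC content of the members' transcripts ran from 40.6% in B2M to 61.3% in HLA-C, and over the tested genes a higher GC content went with a lower log2 ratio (Spearman rho -0.215 across genes, which are not independent replicates). After correction for GC content and length the log2 ratio went from -0.49 to -0.45 for HLA-B and from -0.29 to -0.37 for B2M.

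**Figure D2:**
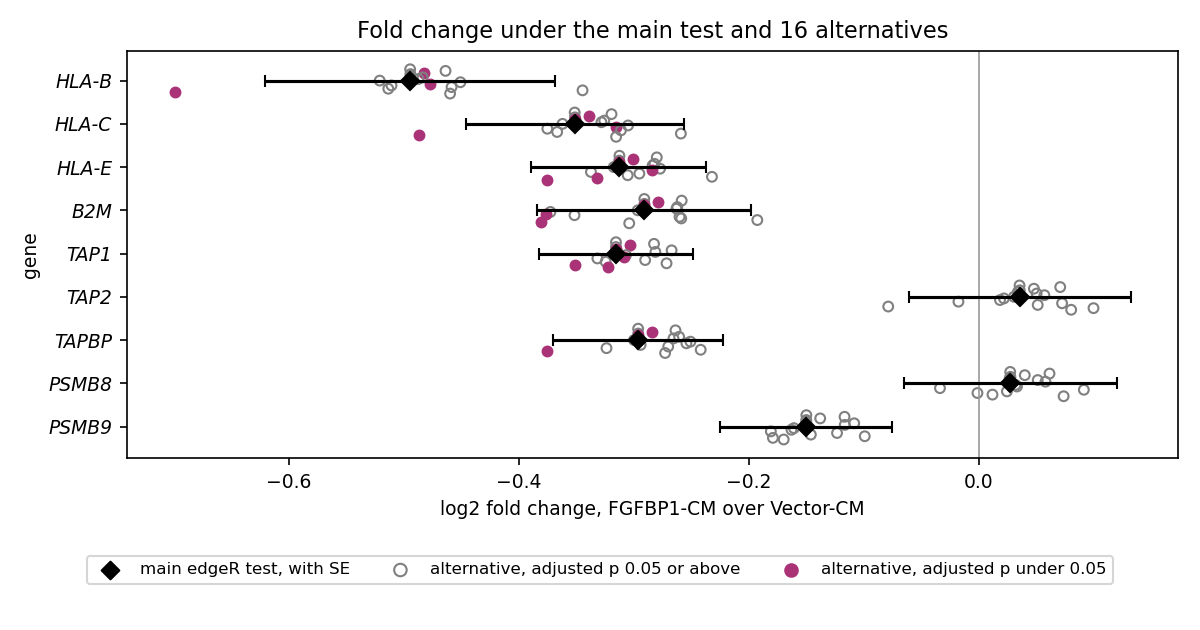
Log2 ratio of FGFBP1-CM over Vector-CM for each of the 9 genes. Diamonds with bars are the edgeR estimate and its SE and circles are 16 alternatives, filled where the adjusted p was under 0.05; 6 genes stayed below 0 with filled circles in 3 to 5 alternatives each, PSMB9 stayed below 0 with none, and TAP2 and PSMB8 fell on both sides of 0.

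Levels per gene length were set in order over the 6 libraries by the deposited FPKM. The lengths implied by counts and FPKM were 5455 bp for B2M, 2922 bp for HLA-E and 2507 bp for HLA-C. The order between genes depends on such lengths, and whether they match the transcripts of LX-2 cells was not tested. B2M was highest, at 345 ± 44.1 FPKM (SD, n = 6), followed by HLA-E at 157 ± 18.7, HLA-B at 129.8 ± 28.1 and HLA-C at 123 ± 18.6 FPKM. HLA-E exceeded HLA-B in 6 of 6 libraries although their ranges overlapped. HLA-B exceeded HLA-C in all 3 Vector-CM libraries, without overlap (145.1 to 158.3 against 132.7 to 144.8 FPKM). In FGFBP1-CM it did so in only 1 of the 3 libraries, and over the 6 libraries the ranges of this pair overlapped. The loading and processing genes were lower, with TAPBP at 48.4 ± 5.56 FPKM, TAP1 at 17.1 ± 1.91 FPKM, PSMB9 at 11.8 ± 0.682 FPKM, PSMB8 at 6.95 ± 0.489 FPKM and TAP2 at 5.81 ± 0.613 FPKM (SD, n = 6). The ranges of PSMB8 and TAP2 overlapped, with PSMB8 above TAP2 in 6 of 6 libraries. The place of TAP2 carries the limit that it may be undercounted where it shares exons with another gene. The order of HLA-E, HLA-B and HLA-C carries the limit that alleles of LX-2 cells may differ from the reference, and the effect on alignment was not tested.

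**Figure D3:**
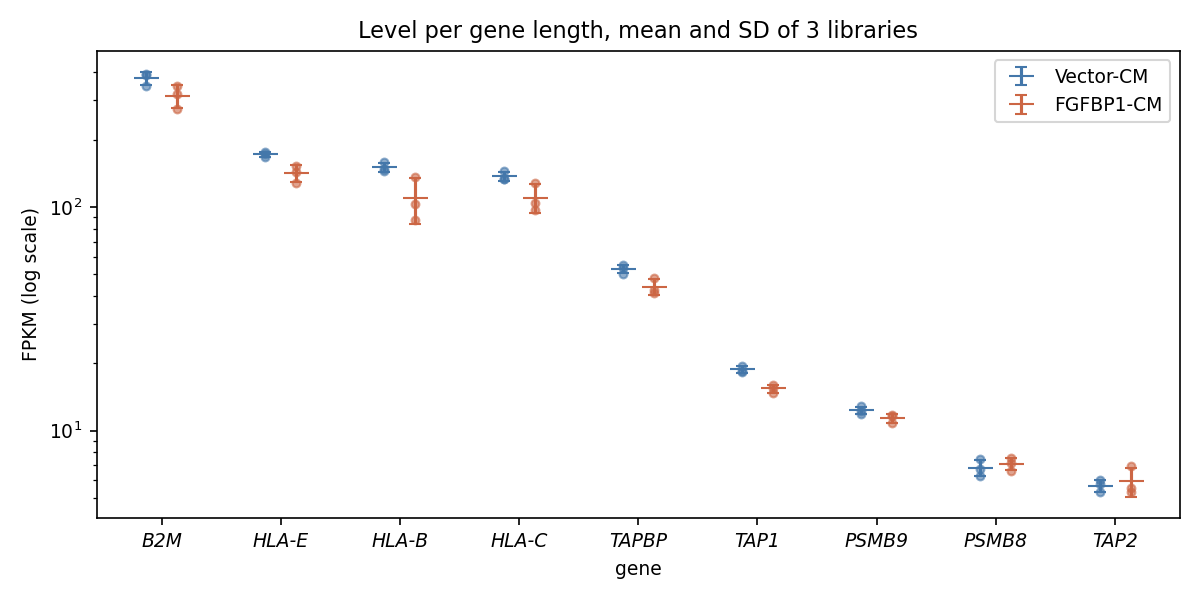
FPKM of the 9 genes on a log axis, in order of their mean level. Points are libraries, and horizontal marks and bars are the mean and SD of 3 libraries in each group; the order of means runs from B2M at 345 FPKM to TAP2 at 5.81 FPKM.

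The balance between heavy and light chains was compared as the FPKM of HLA-B, HLA-C and HLA-E together over that of B2M. Its size depends on the gene lengths behind FPKM, which are the same in both groups. The ratio was 1.30, 1.22 and 1.16 in Vector-CM and 1.13, 1.17 and 1.13 in FGFBP1-CM, so the groups overlapped. The means were 1.23 ± 0.0699 and 1.15 ± 0.0238 (SD, n = 3), with p = 0.2 in an exact two-sided permutation test. A second ratio was the share of immunoproteasome subunits (PSMB8, PSMB9 and PSMB10) in the FPKM of these and their constitutive counterparts (PSMB5, PSMB6 and PSMB7). The size of this share depends on the gene lengths as well. It was 10.2%, 10.8% and 10.3% in Vector-CM and 8.56%, 9.88% and 9.13% in FGFBP1-CM, without overlap. The means were 10.4% ± 0.285 and 9.19% ± 0.662 (SD, n = 3), with p = 0.1, the smallest that the exact test allows. The other subunits of the share, PSMB5, PSMB6, PSMB7 and PSMB10, had log2 ratios of 0.15, 0.03, 0.14 and -0.15 (adjusted p = 0.237, 0.866, 0.262 and 0.733, edgeR).

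Other genes of the pathway were grouped in 7 lists, and in none of them did a tested gene pass at an adjusted p under 0.05 (edgeR). The counts by list stand beside 49.3% lower, 10.7% lower at an unadjusted p under 0.05 and 11.1% higher at that level over all tested genes. Of 9 tested class I and class I-like genes outside the members, 6 were lower and 3 higher, with a median log2 ratio of -0.06. At an unadjusted p under 0.05, 4 were lower and 2 higher, where 10.7% of all tested genes were lower and 11.1% higher. HLA-F, a nonclassical heavy chain gene, had 21.7 ± 1.12 CPM in Vector-CM against 13.8 ± 2.20 CPM in FGFBP1-CM (SD, n = 3). The groups did not overlap, and its log2 ratio of -0.66 (SE 0.118) had an adjusted p of 0.0557 (edgeR) and passed in 8 of the 16 alternatives. Reads of HLA-F and its antisense gene cannot be told apart without stated strandedness. FCGRT, the heavy chain of the neonatal Fc receptor that also pairs with B2M, had a log2 ratio of -0.50 (adjusted p = 0.0818, edgeR). The stress ligands of the NKG2D receptor went in both directions. ULBP3 and ULBP1 were at 0.30 and 0.28 (adjusted p = 0.152 and 0.206, edgeR), and ULBP1 was at 0.16 without FGFBP1-CM replicate 1. MICA and MICB were lower without overlap, at -0.31 and -0.22 (adjusted p = 0.105 and 0.162, edgeR). ULBP2 was at -0.04 with overlapping groups (adjusted p = 0.867, edgeR). MICA, MICB and ULBP2 were named for their role after their values were seen.

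Among 9 tested genes of peptide loading and trimming, 6 were lower and 3 higher, with a median of -0.05, and 3 were lower and 0 higher at an unadjusted p under 0.05. The lowest log2 ratios of this list were those of PDIA3 and CALR, at -0.28 and -0.28 with overlapping groups (adjusted p = 0.126 and 0.159, edgeR). CANX was at -0.01 (adjusted p = 0.936, edgeR). These genes were named for their role after their values were seen. ERAP1, the aminopeptidase that trims peptides in the endoplasmic reticulum, had a log2 ratio of -0.16 without overlap. The cytosolic peptidases TPP2 and NRDC had 0.14 and 0.07 (adjusted p = 0.194 for ERAP1, 0.230 and 0.519, edgeR). Without FGFBP1-CM replicate 1 ERAP1 was at -0.10 and NRDC at 0.04, and with GC and length correction TPP2 was at 0.06 and NRDC at 0.03. Of 7 proteasome partners 5 were higher and 2 lower, with a median of 0.03, and 1 was higher and 1 lower at an unadjusted p under 0.05. The groups did not overlap for PSMB7, which had 148 ± 6.75 CPM in Vector-CM against 163 ± 13.6 CPM in FGFBP1-CM (SD, n = 3). Without FGFBP1-CM replicate 1 the log2 ratio of PSMB7 went from 0.14 to 0.08.

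Of 13 tested regulators of transcription of the pathway, 11 were lower and 2 higher, with a median of -0.06, where 49.3% of all tested genes were lower. At an unadjusted p under 0.05, 3 were lower and 0 higher, against 10.7% and 11.1% of all tested genes. IRF1, an interferon-induced activator of class I genes, had 50.7 ± 0.449 CPM in Vector-CM against 40.3 ± 5.21 CPM in FGFBP1-CM (SD, n = 3), which gave a log2 ratio of -0.34 (SE 0.0877; adjusted p = 0.0780, edgeR). NFYA, a subunit of the factor that binds CCAAT, and RELA, a subunit of NF-kB, had log2 ratios of -0.18 and -0.14 (adjusted p = 0.192 and 0.200, edgeR), and NFYA was at -0.12 without FGFBP1-CM replicate 1. NLRC5, named for its role after its values were seen, was at -0.10 on the log2 scale with overlapping groups (adjusted p = 0.579, edgeR).

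Interferon transcripts themselves were scarce. IFNG had 0 counts in the 6 libraries, and IFNB1 and IFNL1 had at most 6 and 5 counts in a library. Of 10 tested genes of interferon signaling, 7 were lower and 3 higher, with a median of -0.07, and 1 was lower and 1 higher at an unadjusted p under 0.05. The receptor chain genes IFNGR2 and IFNAR1 were at -0.28 and 0.33 on the log2 scale (adjusted p = 0.0961 and 0.114, edgeR), and TYK2, a receptor-associated kinase, was at -0.12 (adjusted p = 0.310). Without FGFBP1-CM replicate 1 IFNAR1 was at 0.17, and TYK2 was at -0.06 with GC and length correction and at -0.08 without Vector-CM replicate 1. Of 21 interferon-induced genes, 19 were lower and 2 higher, where 49.3% of all tested genes were lower. Their median log2 ratio was -0.18, and 7 were lower and 0 higher at an unadjusted p under 0.05, against 10.7% and 11.1% of all tested genes. The 2 higher genes were IFIT2 and IFIT3, at 0.26 and 0.19 with overlapping groups (adjusted p = 0.279 and 0.305, edgeR). Both were named for their direction after their values were seen. The restriction factor genes IFITM1, IFITM2, IFITM3 and BST2 did not overlap between groups, with log2 ratios of -0.46, -0.36, -0.23 and -0.16 (adjusted p = 0.0892, 0.119, 0.0923 and 0.188, edgeR). Without FGFBP1-CM replicate 1 IFITM1 was at -0.30 and IFITM2 at -0.22, and with GC and length correction BST2 was at -0.09.

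**Figure D4:**
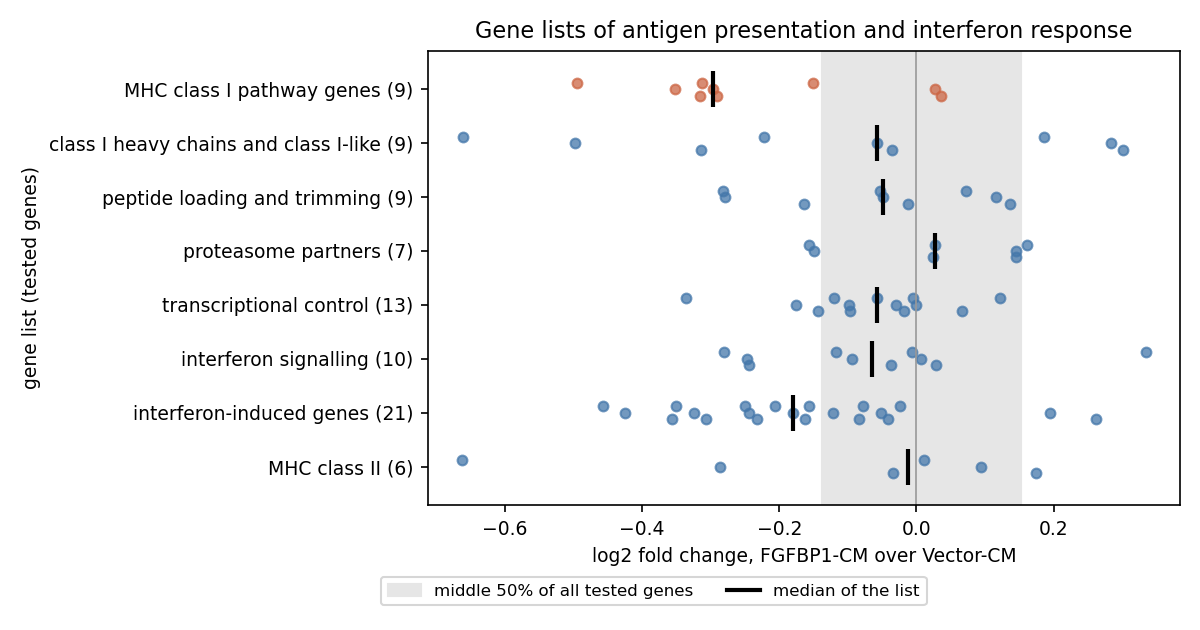
Log2 ratio of FGFBP1-CM over Vector-CM for the tested genes of each list, with the number tested in parentheses. Points are genes, black lines are list medians and the gray band holds the middle 50% of all tested genes, from -0.14 to 0.15; the medians are -0.30 for the 9 class I pathway genes, -0.18 for interferon-induced genes and between -0.07 and 0.03 for the other lists.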

How the data were processed

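RNA sequencing of 6 LX-2 libraries (3 Vector-CM, 3 FGFBP1-CM) was used. Labels of the samples gave group and replicate number. Paired-end reads were aligned by the authors with HISAT2 2.0.5, and they deposited raw counts per gene from featureCounts 1.5.0-p3, with FPKM deposited beside the counts. The submitters' processing notes name hg18, although the Ensembl identifiers are of a later annotation, of which 96.3% are in GENCODE release 29 (GRCh38). Coordinates are those of that release. Strandedness was not given in the sources used here, and the methods describe poly(A) selection as well as removal of ribosomal RNA. A further 175 rows carry an identifier of the authors' own.

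Counts were tested with edgeR 4.0.16 in R 4.3.3 (filterByExpr, TMM, quasi-likelihood F-test), with Benjamini-Hochberg adjustment over the 16707 tested genes and a threshold of 0.05. The SE is the size of the log2 ratio of FGFBP1-CM to Vector-CM divided by the square root of F. CPM are counts per TMM-scaled library size. All 9 members are described. Of the 7 pathway lists, genes were named if past the threshold, or as the 2 highest and 2 lowest log2 ratios without overlap between groups. Other genes are named for their role or, for IFIT2 and IFIT3, for their direction. Some genes of these lists are not reported here. Members and lists were chosen with earlier results of these data known. The procedures were also run on simulated counts, with outcomes not reported here. Ratios of FPKM were compared by exact permutation (scipy 1.17.1).

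Alternatives were RLE scaling, library size only, other filters, DESeq2 1.42.0, limma 3.58.1 on log2(FPKM + 1) and log2(FPKM + 0.1), the replicate block, correction for GC content and length (loess, span 0.3; both known for 98.2% of tested genes), other thresholds, and leaving out each library. Total counts of 14003780 to 18508113 mean that a count of 0 allows up to 3 counts, or 0.162 to 0.214 CPM, for counting error only. No 2 libraries agreed within sampling noise.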

Additional observations from a re-analysis of the deposited data

How the results depend on the processing

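The median log2 ratio of the 9 members moved by less than the spread between libraries in all 16 alternative fits, from -0.351 to -0.232; for the other tested genes of the same stretch of chromosome 6, added after seeing the data, the median was -0.0542. Against 0 members past the threshold, 6 passed with no filter beyond 1 count, 5 with DESeq2, 5 with GC and length correction and replicate block, and 6 at an unadjusted p under 0.05, and the fits that left out 1 library gave 0 to 6. No member passed in the 8 other settings that kept all libraries: RLE scaling, library size only, a mean of at least 1 CPM, both limma fits, the replicate block, GC and length correction, and a 2-fold minimum. The cause was not tested.

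Over all genes, 20 passed (9 higher, 11 lower), against 38 with RLE scaling, 1382 with no filter beyond 1 count, 11 with a mean of at least 1 CPM, 585 with DESeq2, 1 with limma on log2(FPKM + 1), 1 with limma on log2(FPKM + 0.1), 46 with GC and length correction, 3630 at an unadjusted p under 0.05, and 6 with a 2-fold minimum. Higher calls were 24 with RLE scaling, 833 with no filter, 4 with a mean of at least 1 CPM, 322 with DESeq2, 20 with GC and length correction, 1 in each limma fit, 1850 at an unadjusted p under 0.05 and 1 with the 2-fold minimum. Leaving out 1 library gave 4 to 883 genes.

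Deviations from the group means showed little correlation between libraries of one number (-0.114, -0.0230 and 0.146 over 15033 genes). This cannot decide whether the numbers pair the samples, and the sources do not say. The replicate block gave 90 genes (51 higher) and 0 members, and 253 (77 higher) once the replicate block went with GC and length correction.

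The sign of TAP2 and PSMB8 turned in fits that left out 1 library, where TAP2 ranged from -0.0788 to 0.0998 and PSMB8 from -0.0337 to 0.0914 on the log2 scale. Of the values of single members under the alternatives, 24 passed the threshold, 116 kept direction and call, and 4 changed sign. Each FPKM ratio kept its direction, and scaling by TMM leaves them unchanged by construction. With 1 library left out, FGFBP1-CM minus Vector-CM was -1.59 to -0.930 percentage points for the share of immunoproteasome subunits and -0.113 to -0.0432 for the ratio of heavy chains to B2M.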

Other observations

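Genes of the same stretch of chromosome 6 were described beside the members, a comparison added after the data were seen. Between the outermost members (30489467 to 33314387) 90 other genes were tested, of which 56 were lower and 34 higher in FGFBP1-CM. Over all tested genes 49.3% were lower. Their median log2 ratio was -0.05, against -0.30 for the 9 members. Of these 90 genes, 0 passed at an adjusted p under 0.05 in edgeR. At an unadjusted p under 0.05, 13 were lower and 8 higher, beside 10.7% and 11.1% of all tested genes. CPM did not overlap between groups for 15 lower and 8 higher genes, beside 13.2% and 12.8% of all tested genes.

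MHC class II genes, whose products present peptides to CD4+ T cells, differed widely in level. HLA-DRA had at most 1 count and HLA-DRB1 at most 4 counts in a library, whereas HLA-DPB1 averaged 15.05 and 14.7 CPM and HLA-DPA1 8.30 and 8.41 CPM in Vector-CM and FGFBP1-CM. Of 6 tested genes 3 were lower and 3 higher, with a median log2 ratio of -0.01, and 1 was lower and 0 higher at an unadjusted p under 0.05 (10.7% and 11.1% of all tested genes). CD74, the invariant chain, had 2.40 ± 0.214 CPM in Vector-CM against 1.52 ± 0.279 CPM in FGFBP1-CM (SD, n = 3), without overlap (log2 ratio -0.66, adjusted p = 0.129, edgeR), on 23 to 39 counts per library. HLA-DMA, a class II peptide exchange factor, had a log2 ratio of -0.29 (adjusted p = 0.383, edgeR), and of -0.18 without Vector-CM replicate 2. On log2(FPKM + 1), which understates low genes, the values were -0.15 for CD74 and -0.14 for HLA-DMA.

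The genes whose profile over the 6 libraries lay closest to the mean profile of the members were ITM2C, PXDN, TRIM8, LY6E and MLEC. Closeness was the root mean square difference of centered log2 CPM, from 0.0135 for ITM2C to 0.0208 for MLEC. Among the members the same measure was lowest for TAP1 (0.0442) and highest for TAP2 (0.214). The mean profile was lowest in FGFBP1-CM replicate 1 (-0.22) and highest in Vector-CM replicate 2 (0.19).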
